A study of Mus musculus with 26 samples.

Results

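Transfer RNA (tRNA) genes are described here by where they lie relative to the domain boundaries of mouse embryonic stem cells. The members are all 403 genes that RefSeq annotates as tRNA on chromosomes 1 to 19 and X, among 49209 annotated genes placed there. The rule that picks them uses the annotation and no contact data. The boundaries come from Micro-C, which maps chromatin contacts after cutting with micrococcal nuclease. The study has 26 Micro-C libraries in 5 groups, and only the DMSO-treated stem cells contribute the boundary list used here: 6 libraries of RAD21-dTAG cells in G1, a line derived from Bruce-4 cells with a C57BL/6J genotype. These cells were grown in serum with 2i and LIF and received 0.05% v/v DMSO as vehicle. Their cohesin subunit RAD21 carries a degradable tag, as in every other group, but they received no dTAG to trigger its loss. The other groups, treated with 500 nM dTAG or 20 µM A485 or made into epiblast-like cells, were not analysed here. The list holds 3515 intervals of 25 kb in mm10, 1 set for the whole group, with no score and no replicate values. Whether the 6 libraries came from separate cultures is not said. The contacts behind each interval are unknown, and every share below is a description whose 95% Wilson interval covers counting error only.

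tRNAs carry amino acids to the ribosome and read codons through a triplet, the anticodon. Their genes are short and are transcribed by RNA polymerase III from a promoter inside the gene. Its parts, the A box and the B box, are bound by the factor TFIIIC, which brings in TFIIIB and then the polymerase. tRNA genes and TFIIIC sites are known for insulator activity in yeast and have been linked to genome architecture in mammals.

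The sequences of 4 members are given here with these parts marked. These 4 lie whole within a RefSeq promoter window of another gene (GRCm38.p6, the build also called mm10), from 250 bases before its start site to 50 after, and were read from it. None of the 403 tRNA genes has a promoter entry of its own. The strand shown is the one that holds the B box pattern GTTCNANNC, which was searched on both strands and found on only 1 in each of the 4. The capitals mark, from left to right, the core of the A box, the anticodon named in the symbol, and the B box. The A box core, GNNNANNNG, was marked only where it starts at base 10 of the gene, as it does in all 4. Matches of this loose pattern elsewhere are not marked, and its share over promoter windows was not counted. The symbol n-TVcac9, for example, gives V for valine and the anticodon CAC.
n-TVcac9: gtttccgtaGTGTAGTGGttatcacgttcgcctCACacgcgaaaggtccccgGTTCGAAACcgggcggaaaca
n-TAagc16: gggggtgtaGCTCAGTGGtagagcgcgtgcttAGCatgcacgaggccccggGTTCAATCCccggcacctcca
n-TTagt9: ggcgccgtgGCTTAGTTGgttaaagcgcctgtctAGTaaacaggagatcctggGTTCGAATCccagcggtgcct
n-TRtcg5: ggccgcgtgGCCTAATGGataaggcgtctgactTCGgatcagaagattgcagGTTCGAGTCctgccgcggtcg
n-TVcac9 (chr13:23446142-23446214) belongs to the locus with the second highest number of tRNA genes and lay 21.142 kb from a boundary. n-TAagc16 (chr13:21222586-21222657) lay 72.586 kb away in another chromosome 13 locus. n-TTagt9 (chr7:35234770-35234843) lay 15.158 kb from a boundary. n-TRtcg5 (chr7:79466419-79466491) lay 283.51 kb away and 146 bases from the start site of Polg, which encodes the mitochondrial DNA polymerase. In all, 10 tRNA genes overlapped a promoter window, 4 whole and 6 in part, and 0 of these 10 lay within 10 kb of a boundary. Among the 6 is n-TLaag4, 180 bases from the start site of Polr3e, which encodes a subunit of RNA polymerase III itself. The B box pattern alone is not rare: 9.36% of 32619 promoter windows hold it on either strand.

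The 403 genes cover 20 amino acids and 48 anticodons, and the anticodon of each symbol decodes its amino acid letter by the standard code in all 403. The symbol n-Tcgca44, written with a lower-case letter, was read as cysteine. Genes are 70 to 107 bases long, with a median of 72. They lie on 19 chromosomes; the annotation used holds 0 on chromosome 18, which was therefore not analysed here. When neighbours under 100 kb apart are joined, the genes form 127 loci. Of these, 94 hold a single gene, whereas 13 loci of 5 or more genes hold 260 of the 403.

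A tRNA gene is called near a boundary when either of its ends lies inside the 25 kb interval or within 10 kb of it. By this measure 89 of 403 tRNA genes were near, a share of 22.1% (18.3 to 26.4), beside 12.9% of the 48806 other annotated genes and 18.3% of protein-coding genes. The share was 1.71 times that of all other genes and 1.21 times that of protein-coding genes. Long genes have ends far apart and so more chances to qualify. By gene midpoint, which gives each gene a single point whatever its length, the tRNA share stayed at 22.1%. It was 9.08% for all other genes and 11.2% for protein-coding genes. A long gene can end at a boundary and have its midpoint far away, so the midpoint can miss long genes that the ends count. Other short RNA genes had lower shares by their ends, 9.93% for miRNA, 10.2% for snoRNA and 7.03% for snRNA genes, and long non-coding RNA genes had 10.3%. Of the 89 tRNA genes, 53 lay inside an interval and 36 in the flanking 10 kb. Inside alone, the share was 13.2% of tRNA genes, beside 7.96% of all other genes and 11.7% of protein-coding genes. None of these differences was tested, since neighbouring tRNA genes share their position and the boundaries come from a single list.

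The median tRNA gene lay 53.3 kb from a boundary, with quartiles of 11.96 and 119 kb. The medians were 98.9 kb for protein-coding genes, 130.5 kb for all other genes, 146 kb for miRNA, 191 kb for snoRNA and 170.2 kb for snRNA genes. Counted once per locus by its nearest gene, the tRNA median was 95.9 kb. Just inside the 10 kb limit were n-TKctt13 at 8.96 kb and n-TTtgt3 at 9.76 kb. Just outside were n-TPagg4 at 10.1 kb and n-TCgca39 at 10.2 kb. A further 107 genes lay between 10 and 50 kb away, which brings 48.6% within 50 kb, beside 27.9% of all other genes and 35.6% of protein-coding genes. At the far end 13 genes lay over 500 kb from any boundary. The farthest, n-TEctc2 on chromosome 12, chosen after its value was seen, lay 1385 kb away, and Immp2l was its nearest protein-coding gene.

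**Figure D1:**
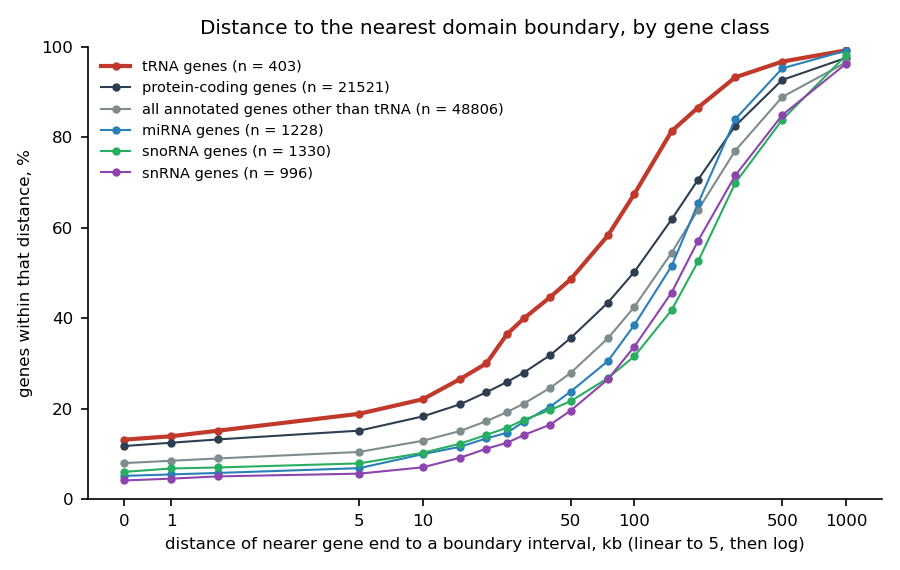
Share of genes (y axis, %) whose nearer end lies within a given distance of a boundary interval (x axis, kb, linear to 5 kb and logarithmic beyond), for 6 gene classes. The tRNA line lies above the other 5 at each of the distances plotted, reaching 22.1% at 10 kb and 48.6% at 50 kb.

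The clustering of tRNA genes bears on these shares. Of the 94 single-gene loci, 16 were near a boundary (17.02%, 10.8 to 25.9), a share whose interval holds the 12.9% of all other genes and the 18.3% of protein-coding genes. By midpoint, all other genes had 9.08% and protein-coding genes 11.2%. Of the 20 loci with 2 to 4 genes, 5 had a gene near (25%, 11.2 to 46.9). Of the 13 loci with 5 or more genes, 9 did (69.2%, 42.4 to 87.3). These larger loci had a median span of 77.6 kb and up to 260.0 kb, so they reach more of the chromosome than a single gene. Over all 127 loci, 30 had a near gene (23.6%, 17.1 to 31.7). The 5 loci with most near genes contributed 50 of the 89, and without them 39 of 252 genes were near (15.5%, 11.5 to 20.5). These 5 were picked by their near genes, so leaving them out had to lower the share. The interval that remains holds the 12.9% of all other genes and the 18.3% of protein-coding genes, both by ends. It lies above their midpoint shares of 9.08% and 11.2%. How much of the excess came with those 5 loci was not tested.

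Gene midpoints were densest in the interval and in the next 25 kb on its higher-coordinate side. The interval held 53 tRNA genes over all boundaries, 3.85 times the genome mean for a 25 kb stretch, and the bin after it held 63, at 4.57 times. Protein-coding genes reached 1.91 times their mean in the interval. The 53 genes came from 20 loci, with 10 from the chromosome 1 locus that begins with n-TNgtt6. The 63 came from 19 loci, with 16 from a single chromosome 13 locus and 9 from another. The tRNA profile was uneven elsewhere too. A bin 125 kb before the interval held 42 genes from 8 loci, 16 of them from the chromosome 13 locus that begins with n-TIaat15.

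**Figure D2:**
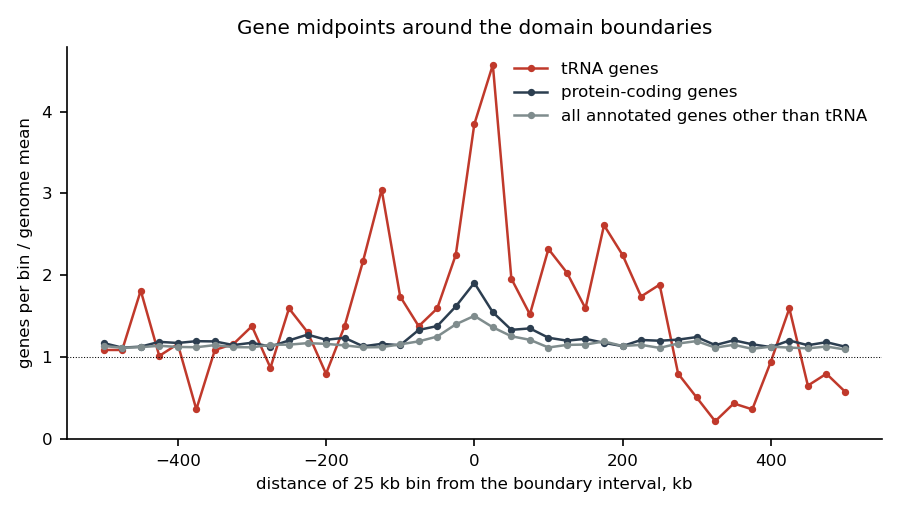
Gene midpoints per 25 kb bin, divided by the genome mean of the class (y axis), against the distance of the bin from the boundary interval (x axis, kb, lower coordinates to the left), summed over 3515 boundaries. The tRNA line reaches 3.85 in the interval and 4.57 in the next bin and swings widely beyond, while protein-coding genes peak at 1.91.

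The locus with most tRNA genes is a run of 48 cysteine genes on chromosome 6, all with anticodon GCA, over 229.7 kb (chr6:48133937-48363603). It begins inside the boundary at chr6:48125001-48150000. Of the 48 genes, 5 lay inside the interval and 2 more within 10 kb, and the remaining genes followed up to 213.5 kb past it. The other 43 genes lay together in a domain of 275 kb, the stretch between neighbouring boundaries, with Krba1 as the only protein-coding gene centred there. The genes were spaced by a median of 3.396 kb.

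Chromosome 13 carries 105 tRNA genes, more than any other chromosome, and 14 of these were near a boundary (13.3%, 8.11 to 21.1), beside 14.2% of all genes on that chromosome. Off chromosome 13 the share was 75 of 298 (25.2%, 20.6 to 30.4). Its 3 large loci differed in their placement. The first by position, 24 genes from n-TEctc11 to n-TMcat13 (chr13:21160785-21326789), had 0 near, with n-TEctc11 just outside the limit at 10.8 kb. The next, 32 genes from n-TLtaa2 to n-TSgct5 (chr13:21848022-22050767), filled a domain of 225 kb, where 31 genes lay. Its last gene alone, n-TSgct5 for serine, lay inside the boundary that closes this domain. That domain also holds histone genes, among them H2ac11, H2bc11 and H4c9, whose ends lie within 10 kb of the same boundary as n-TSgct5.

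The third large locus on chromosome 13, 45 genes of 15 amino acids from n-TIaat15 to n-TMcat9 (chr13:23270421-23530419), was met by 2 boundaries. The boundary at chr13:23250001-23275000 held the first gene, n-TIaat15 for isoleucine. The boundary at chr13:23400001-23425000 had 12 tRNA genes near it, 5 of them inside, and the start site of Abt1. This boundary divided the locus. Before it, 9 tRNA genes for valine, alanine, isoleucine and methionine lay in a 125 kb domain with Zfp322a. After it, 30 genes of 15 amino acids lay in another 125 kb domain with 7 protein-coding genes, Btn1a1, Btn2a2 and the histone genes H4c8, H2ac10, H3c8, H2bc9 and H3c7. A length of 125 kb is the shortest in the list, shared by 7 of 3495 domains.

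The chromosome 1 locus had most genes near a boundary, 16 of 25, of which 10 lay inside (chr1:171050001-171075000). Of its genes, 15 lie in repeats. A block of 5 genes, Glu-CTC, Gly-TCC, Asp-GTC, Leu-CAG and Gly-GCC, occurred 3 times in the same order, beginning with n-TEctc5, n-TEctc8 and n-TEctc7 at bases 171064164, 171071792 and 171079406. The starts are 7.63 and 7.61 kb apart. The first and next blocks lay inside the interval and the last lay after it, within 10 kb. Counted by midpoint, 5 genes lay before the boundary, 10 inside it and 10 after it. Fcgr3, which encodes an immunoglobulin Fc receptor, was the only protein-coding gene with an end within 10 kb of this interval. Within the span of Fcgr3 lay n-TEctc5, n-TGtcc1 and n-TDgtc3. Near-identical copies can limit where reads are placed, and this was not tested.

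Of the remaining large loci, the chromosome 19 run was the only one with all its genes inside an interval. Its 8 genes, from n-TFgaa6 to n-TVtac2, for phenylalanine, lysine, leucine, arginine and valine, span 10.1 kb (chr19:12002236-12012338). They lay in the boundary at chr19:12000001-12025000, where Osbp, which encodes an oxysterol-binding protein, was the only protein-coding gene with an end near. On chromosome 3, 25 genes were spread over 179 kb (chr3:96322074-96501518). Of these, 19 lay in a domain of 200 kb, 3 inside the boundary that closes it and 3 just after that boundary. The last 6 were near it, for glutamine, asparagine, lysine, histidine, glycine and glutamate. On chromosome 14, 5 of 7 genes were near the boundary at chr14:51075001-51100000. These include n-TYgta10 for tyrosine, and Ang and Rnase4, genes of secreted ribonucleases, have ends at the same interval.

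On chromosome X the 8 genes from n-TAtgc2 to n-TAtgc4 all code for alanine tRNA, and so do the 4 genes from n-TAtgc3 to n-TAtgc1. Both loci touched a boundary, with 4 of 8 and 3 of 4 genes near. They reach into the same 200 kb domain from its opposite ends, and 9 of the 12 genes are centred in it. Chromosome 17 had 1 of 7 genes near. Besides the n-TEctc11 locus, 3 large loci had 0 genes near a boundary. The 18 genes of 11 amino acids on chromosome 11 from n-TIaat5 to n-TKctt27 (chr11:69037003-69125248) lay 162 to 250.2 kb away, within a domain of 1100 kb. The 8 genes from n-TVcac7 to n-TLaag6, also on chromosome 11, lay 43.5 to 82.0 kb away. The 5 genes on chromosome 5 lay 115 to 121 kb away. A boundary with tRNA genes of the same locus on both sides occurred in 4 of the 33 loci with 2 or more genes.

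**Figure D3:**
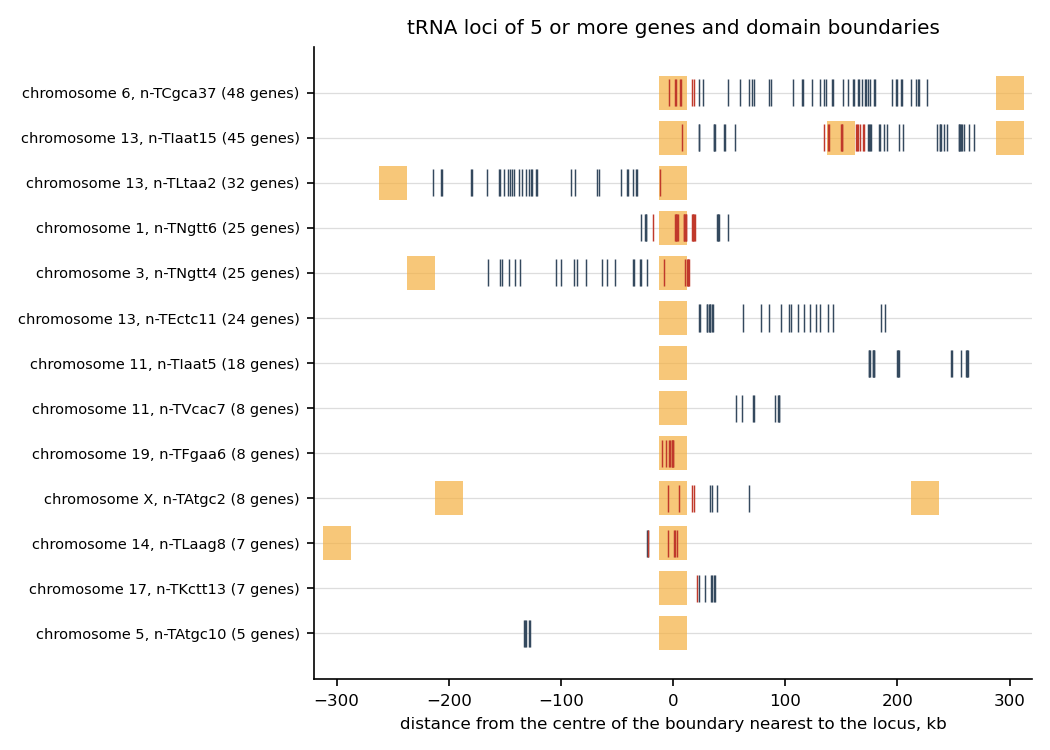
Positions of tRNA genes (vertical ticks) and boundary intervals (orange blocks) in the 13 loci of 5 or more genes, by distance from the centre of the boundary nearest to each locus (x axis, kb). Red ticks are genes within 10 kb of a boundary and dark ticks are the others. All 8 genes of the chromosome 19 locus fall inside an interval, while the 18 genes of a chromosome 11 locus lie 162 to 250.2 kb away.

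Among smaller loci with 3 or more genes, all 3 genes on chromosome 9 from n-TCgca47 to n-TEttc8 (chr9:104400120-104408738) lay inside a boundary without any protein-coding gene end near. The 3 histidine genes on chromosome 2, n-THgtg4, n-THgtg3 and n-THgtg5, lay 0.494, 2.36 and 2.97 kb from a boundary that also has ends of Shf and Duox1 near. On chromosome 11, n-TCgca18 lay inside a boundary that parts its locus of 4 genes, with Rpl23, Cwc25 and Pip4k2b near.

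Of the single-gene loci, 9 lay inside an interval. They were n-TRtct2 for arginine on chromosome 3, n-TSaga9 for serine and n-THgtg10 for histidine on chromosome 4, n-TQctg9 for glutamine on chromosome 9, n-TWcca1 for tryptophan on chromosome 10, n-TWcca8 for tryptophan and n-TRccg1 for arginine on chromosome 11, n-TTcgt5 for threonine on chromosome 16 and n-TIaat17 for isoleucine on chromosome 17. These 9 genes cover 7 amino acids. Some lay almost at the middle of the 25 kb interval: n-TTcgt5 (chr16:13437323-13437394) was at -0.142 kb from its centre, on the lower-coordinate side, n-TRccg1 (chr11:107012866-107012938) at 0.402 kb and n-TQctg9 (chr9:64738046-64738117) at 0.581 kb. n-TQctg9 lay 0.290 kb from Rab11a, which encodes a GTPase of recycling endosomes. n-THgtg10 lay far from genes, 113 kb from Nfib, the nearest protein-coding gene.

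By amino acid, all 20 had at least 1 gene near a boundary, and in 16 the share exceeded the 12.9% of all other genes. Tyrosine had the highest share, 6 of 10 genes (60%, 31.3 to 83.2), and histidine followed with 5 of 11 (45.5%, 21.3 to 72.0). Of the 6 tyrosine genes, 5 are neighbours at the same chromosome 13 boundary, n-TYgta3 to n-TYgta7, at 0.646 to 7.99 kb from it, so they stand for a single position. The other tyrosine genes lay inside an interval (n-TYgta10) or 42.1 to 246.6 kb away. Histidine genes near a boundary came from 3 loci of 4. Glycine followed with 9 of 28, isoleucine with 5 of 16, alanine with 10 of 33, phenylalanine with 2 of 7 and leucine with 7 of 25.

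The lowest shares belonged to methionine and proline, each with 1 of 16 genes (6.25%, 1.11 to 28.3), and to asparagine with 1 of 13. Methionine genes were not far from boundaries: 9 of 16 lay within 50 kb, while 5 of 16 proline genes did. Cysteine, with most genes, had 10 of 57 near (17.5%, 9.82 to 29.4), from 3 loci. Isoleucine and lysine genes near a boundary came from 4 loci each, as did leucine genes. The intervals of tyrosine and histidine lie above the 18.3% of protein-coding genes, while that of glycine begins at 17.9%. These intervals count neighbouring genes as separate, which they are not. Of the near genes, 5 of 6 for tyrosine, 3 of 5 for histidine and 7 of 9 for glycine each lay in 1 locus. The intervals of the 20 amino acids overlap widely, and no order among them was tested.

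**Figure D4:**
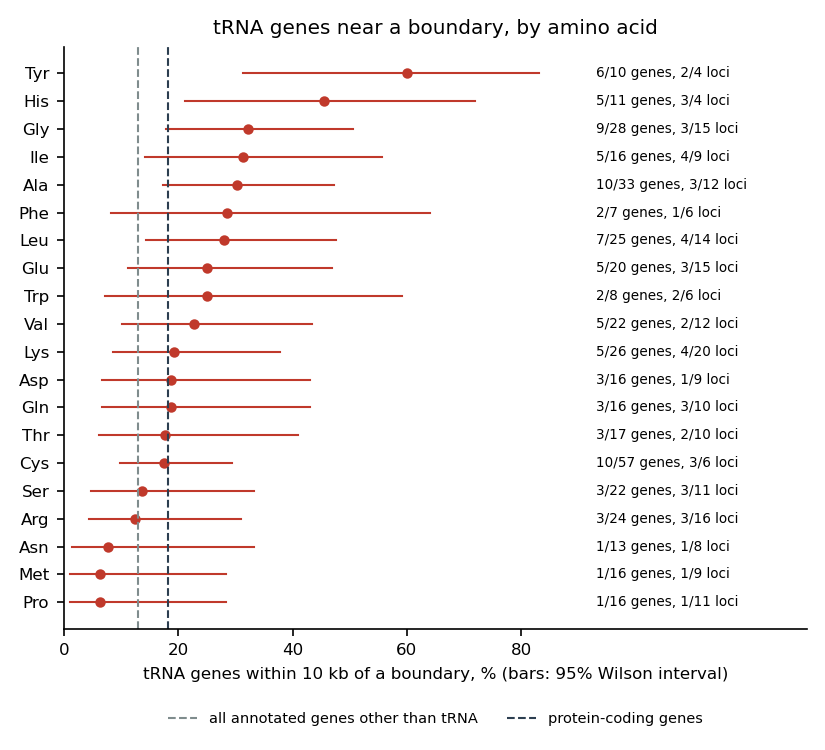
Share of tRNA genes within 10 kb of a boundary (x axis, %) for each of 20 amino acids (y axis), with 95% Wilson intervals as bars and counts of genes and loci at the right. Dashed lines mark all annotated genes other than tRNA (12.9%) and protein-coding genes (18.3%); tyrosine (6 of 10) and histidine (5 of 11) have the highest shares, methionine and proline the lowest.

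Of the 48 anticodons, 33 had a near gene. Within an amino acid the anticodons differed in count. By their symbols alone, since their sequences were not read, all 5 near histidine genes have the anticodon GTG. All 5 near lysine genes likewise have CTT, and all 5 near isoleucine genes AAT. These are the commonest anticodons of those amino acids, with 10, 24 and 15 genes. Among leucine genes, 5 of 10 with CAG were near, 2 of them a pair on chromosome 8 (n-TLcag5 and n-TLcag4) and 3 in the chromosome 1 repeats, whereas 0 of 5 with AAG and 0 of 4 with CAA were. Leucine genes with TAA and with TAG had 1 of 3 near each. Among threonine genes, 0 of 9 with AGT and 1 of 4 with CGT were near, beside 2 of 4 with TGT. Both of these TGT genes lay at the same chromosome 14 boundary. Among arginine genes, 2 of 5 with TCT and 1 of 3 with CCG were near, beside 0 of 6 with ACG, 0 of 5 with CCT and 0 of 5 with TCG. Genes of 80 bases or more, the lengths reached by leucine, serine and tyrosine genes and by some for arginine and isoleucine, were near in 21 of 64 cases (32.8%, 22.6 to 45.0). Shorter genes were near in 68 of 339 (20.1%, 16.1 to 24.6). The intervals overlap, and the difference was not tested. Of the 21, 5 are the tyrosine neighbours at a single chromosome 13 boundary, 3 are in the chromosome 1 repeats and 2 are the chromosome 8 pair.

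Seen from the boundaries, 31 of 3515 had a tRNA gene near, 0.882% (0.622 to 1.25), and 21 had one inside. A single tRNA gene accounted for 20 of these 31, 2 to 4 genes for 5, and 5 or more for 6. The last 6 had 54 tRNA genes near in all. A protein-coding gene end lay within 10 kb at 24 of the 31 (77.4%, 60.2 to 88.6), beside 64.3% of all boundaries, a share inside that interval. The other 7 boundaries, with no protein-coding gene end near, include the chromosome 6 cysteine run, the chromosome 3 locus, n-THgtg10, the chromosome 9 cysteine and glutamate genes and the first X locus.

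The median tRNA gene had 28 protein-coding genes centred within 500 kb, while the median protein-coding gene had 16, itself included. This excess was carried by the clusters: the 94 single-gene loci had a median of 12, and the median over all 127 loci was 14. The 403 genes were split by whether a protein-coding gene end lay close by. Of 185 tRNA genes with such an end within 10 kb, 44 were near a boundary (23.8%, 18.2 to 30.4), and of 218 without, 45 were (20.6%, 15.8 to 26.5), and the intervals overlap. These 45 include 7 genes of the chromosome 6 cysteine run, 6 of the chromosome 3 locus and 3 of a chromosome 9 locus. They therefore stand for fewer positions than genes. In the other short RNA classes the shares lay further apart, at 13.5% and 6.86% for miRNA, 22.5% and 5.27% for snoRNA and 12.2% and 5.10% for snRNA genes. Whether the classes differ in this was not tested.

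Short domains held many tRNA genes. Of 348 tRNA genes centred in a domain, 106 (30.5%, 25.9 to 35.5) lay in domains of up to 250 kb, beside 7.88% of protein-coding genes and 7.24% of all genes. Most came from a few loci: 31 and 30 genes lay in 2 domains of chromosome 13, 19 in the domain of the chromosome 3 locus and 9 in the X domain. Counted once each, the 111 domains with a tRNA gene had a median length of 650 kb, above the 500 kb of all domains.

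The genes that make and use tRNAs were set beside the tRNA genes, in lists made by symbol. Of 86 protein-coding members in all, 21 were near a boundary (24.4%, 16.6 to 34.5), beside 18.3% of protein-coding genes, a share inside that interval. Of the 13 RNA polymerase III subunit genes only Polr3a, for the largest subunit, was near. Of the 6 TFIIIC genes Gtf3c3 and Gtf3c6 were. Of 11 genes for TFIIIB and regulators, 3 ended inside an interval: Bdp1 and Tbp, for TFIIIB subunits, and Maf1, for a repressor of RNA polymerase III. Cytosolic aminoacyl-tRNA synthetase genes, whose products charge tRNAs, were near in 6 of 20 cases, Farsb, Hars, Nars, Qars, Tars and Wars. Mitochondrial synthetase genes were near in 2 of 17, Hars2 and Nars2. The list of 19 genes for tRNA processing and splicing includes those for the processing of tRNA ends. Of these end-processing genes, Pop1, Rpp21, Rpp30 and Rpp38, for proteins of RNase P or the related RNase MRP, were near a boundary. So were Elac2, for the nuclease that trims the 3' end, and Trnt1, for the enzyme that adds CCA there. Elac1, Pop4, Pop5, Pop7, Rpp14, Rpp25 and Rpp40, also for end processing, were not, at 54.1 to 3433 kb.

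Other genes transcribed by RNA polymerase III were placed differently from each other. Of 6 named genes, 3 were near a boundary (50%, 18.8 to 81.2), beside 12.9% of all annotated genes other than tRNA. Rmrp lay 6.94 kb from a boundary, and Rpph1, the RNA of the enzyme that trims tRNA 5' ends, 7.45 kb. The vault RNA gene Vaultrc5 lay 1.76 kb from the boundary that also holds ends of Hars and Hars2. Rn7sk, Rny1 and Rny3 were not near, at 74.4, 337 and 343 kb. Of 51 5S ribosomal RNA genes, 0 were near a boundary (0%, up to 7.005%), and their median distance was 444 kb. Of these, 40 form a run on chromosome 8 (chr8:123538784-123622046) at 403 to 462 kb, so they stand for a single position, and the other 11 lay 23.0 to 761 kb away.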

How the data were processed

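The authors made Micro-C libraries and, per the submitters' processing notes, aligned reads with BWA 0.7.17 and processed them with Juicer 1.22.01 on mm10. The deposited file lists boundary intervals for the DMSO-treated stem cells and gives no score. How boundaries were called, and with which settings, is not given in the sources used here. Genes came from the RefSeq table of GRCm38.p6. Of 430 tRNA genes, 22 mitochondrial genes and 5 with scaffold positions were left out. Distance was taken from the nearer gene end to the interval, with 10 kb as the limit. Loci joined neighbours under 100 kb apart. Windows of 0 and 50 kb, midpoints, other joining distances and leaving out chromosomes or loci were tried. Members and lists were chosen with earlier results of these data known. No test was run, because 1 pooled list has no replicates. Named genes followed a fixed rule: first and last genes of the 5 loci with most tRNA genes, near loci of 3 or more genes, single-gene loci inside an interval, their nearest protein-coding genes and near members of the other lists. Other names were added after their values were seen. A result for 1 list member is not reported here. Distances were tested on simulated data in 5 sets, and 100% equalled a direct search. Python 3.11.15, pandas 2.3.3, numpy 2.4.6, scipy 1.17.1, statsmodels 0.14.6 and matplotlib 3.10.9 were used.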

Additional observations from a re-analysis of the deposited data

How the results depend on the processing

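The width of the window set every share. With no window the share of tRNA genes near a boundary was 13.2%, of tRNA loci 15.7% and of boundaries with a tRNA gene 0.597%. With 50 kb these were 48.6%, 39.4% and 1.54%, and the tRNA pathway genes reached 41.9%. Against all other genes with the same window, the tRNA share was 1.65 times as high with no window, 1.71 with 10 kb and 1.74 with 50 kb. The count of amino acids above all other genes was 16 with 10 kb, 17 with no window and 20 with 50 kb. The other values that moved came from leaving out loci or taking 1 value per locus. Without the 5 loci with most near genes, an alternative chosen after seeing the data, the gene share was 15.5%. Because those loci were picked by their near genes, this share had to be lower. Single-gene loci alone had 17.02%, and the median distance taken once per locus was 95.9 kb, both also chosen after seeing the data, as were the windows for the pathway genes. The remaining alternatives stayed within the counting interval of the reported value, with a median of 66.1 kb without chromosome 13: midpoints, leaving out chromosome 13, keeping scaffold positions, other joining distances and leaving out the cysteine run. No paired analysis was possible because the deposited list has no value per replicate. Depth, boundary strength and mappability of repeated tRNA genes could not be assessed from this list.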
